A study of Mus musculus with 20 samples.

Results

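Cytokines, chemokines and their receptors, and the genes that interferons switch on, were compared in the prostates of 5 inbred mouse strains. The set was chosen by gene symbol alone: the chemokines and their receptors (Cxcl, Cxcr, Ccl and Ccr), the interleukins and their receptors (Il), the TNF ligands, receptors and TNF-induced proteins (Tnf), the kinases and transcription factors of cytokine signalling (Jak, Stat and Irf), their inhibitors (Socs), and the interferon-stimulated genes (Ifi, Isg, Oas, Mx1, Mx2 and Usp18). On the array, 152 elements of 87 genes carried 1 such symbol and no other, and all 152 had at most 3 missing values among 20 arrays, of 11159 elements with enough values to test and 11552 deposited. The strains were C57BL/6J, 129X1/SvJ, FVB/NJ, BALB/c and DBA/2, all untreated males of 8 to 9 weeks. Each strain gave 4 pools of 3 mice (12 mice a strain), and a pool held equal amounts of RNA of the dorsal, lateral, ventral and anterior lobes together. The RNA was amplified, labelled with Cy3 in 2 pools of a strain and with Cy5 in the other 2, and hybridised to a spotted cDNA array beside 1 common reference made from all strains. The values are log2 ratios of sample over reference, so a value of 1 is a doubling of the transcript level in that pool over the reference and a value of 0 is the level of the reference. The methods name Jackson as the supplier of C57BL/6J, 129X1/SvJ and FVB/NJ mice and Charles River as that of the others, so that supplier and strain cannot be told apart in a difference between these groups of strains.

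Interleukins and chemokines are secreted proteins that call leukocytes into a tissue or change what they do. Their receptors signal through Jak kinases and Stat factors or, for the interleukin-1 and TNF families, through NF-kappaB. Interferons switch on antiviral genes through the interferon-stimulated response element (ISRE) in their promoters, and Socs proteins and Usp18 switch the response off. In the prostate, epithelium, fibroblasts, vessels and the resident leukocytes can all express members of these families, and whole-tissue RNA does not tell which cells did: fewer cells of a type and less RNA per cell cannot be told apart. Since the reference came from the same tissue, a ratio does not say whether a gene was abundant or near background, and the labelled tissue could not be checked against the level of its markers.

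Over the 5 strains, 27 of the 152 elements passed the F test at an adjusted p of at most 0.1 (17.8%), beside 11.3% of all elements tested. They belonged to 16 of the 87 genes. Counted by 1 element a gene, 14 of 87 genes passed (16.1%), beside 12.4% of all named genes. At an unadjusted p under 0.05, the counts were 36 elements (23.7%), beside 19.9% of all elements. The median gap between the highest and the lowest strain mean was 0.35 over the 152 elements, and 0.32 over all elements tested. The gaps of the called elements ran from 0.37 (Socs2) to 2.03 (Il18). The chemokines held 7 called elements of 27 (Ccl8, Ccl11, Cxcl12 and Ccl9), the interleukins 6 of 24 (Il18, Il1b, Il7 and Il17b) and the interleukin receptors 8 of 26 (Il1r2, Il1r1, Il1rap, Il3ra and Il4ra). Tnfrsf21 gave 3 of the 9 elements of TNF receptors, Socs2 gave 2 of 7 elements of Socs inhibitors and Stat2 gave 1 of 25 elements of kinases and transcription factors. None of the 10 elements of chemokine receptors, the 4 of TNF ligands, the 4 of TNF-induced proteins or the 16 of interferon-stimulated genes passed the limma F test, with 1, 0, 0 and 3 of them at an unadjusted p under 0.05.

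**Figure D1:**
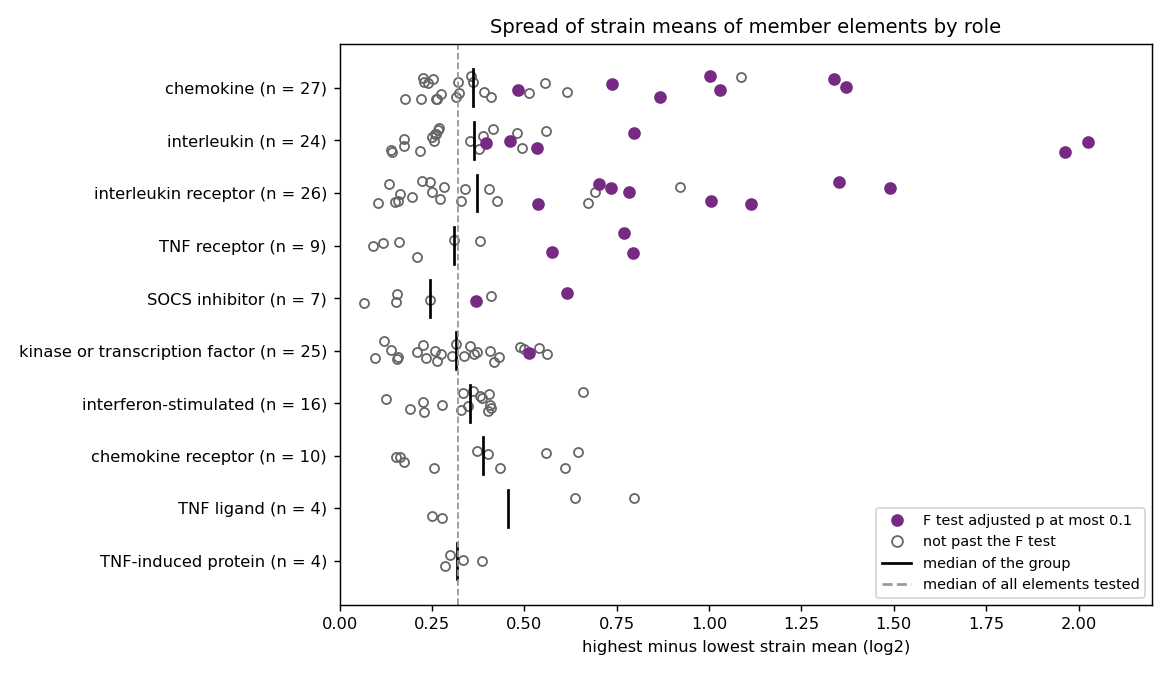
Gap between the highest and the lowest strain mean (log2, horizontal axis) of the 152 elements, in rows by role; filled points passed the F test over the strains, the short vertical lines are the medians of the rows, and the dashed line is the median of all 11159 elements. The 2 points beyond 1.9 are the spots of Il18, and the row of interferon-stimulated elements holds no filled point and ends at 0.66.

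Promoters of the genes on which the contrast turns are printed here: 4 genes that differed between strains (Il18, Cxcl12, Il1r2 and Ccl8), Stat2, and 2 interferon-stimulated genes with an ISRE match (Ifi203 and Ifitm2). Each is the 250 bases before a start of the gene in RefSeq, from GRCm38.p6. That is the genome of a C57BL/6J mouse, so that the other 4 strains may differ from it. Ifi203 had another such window (chr1:173942673-173942922, minus strand), not printed, which held no match. Capitals mark matches on either strand to the ISRE core (GAAA, any 2 bases, GAAA) or to the Stat site called GAS (TTC, any 3 bases, GAA). A search for the kappaB site (GGGA, any 2 bases, TTCC) gave no match in these 7 windows, and none of them held both an ISRE core and a GAS match.
Il18 (chr9:50554450-50554699, plus strand): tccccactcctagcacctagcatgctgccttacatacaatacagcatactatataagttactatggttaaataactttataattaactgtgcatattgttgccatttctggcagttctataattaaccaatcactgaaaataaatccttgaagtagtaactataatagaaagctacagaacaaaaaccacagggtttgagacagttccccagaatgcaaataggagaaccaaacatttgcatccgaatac
Cxcl12 (chr6:117168285-117168534, plus strand): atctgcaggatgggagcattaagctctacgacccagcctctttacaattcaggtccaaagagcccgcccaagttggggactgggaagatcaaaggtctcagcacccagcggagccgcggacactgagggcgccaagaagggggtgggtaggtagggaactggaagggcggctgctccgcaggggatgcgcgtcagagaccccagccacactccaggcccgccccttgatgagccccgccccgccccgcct
Il1r2 (chr1:40085843-40086092, plus strand): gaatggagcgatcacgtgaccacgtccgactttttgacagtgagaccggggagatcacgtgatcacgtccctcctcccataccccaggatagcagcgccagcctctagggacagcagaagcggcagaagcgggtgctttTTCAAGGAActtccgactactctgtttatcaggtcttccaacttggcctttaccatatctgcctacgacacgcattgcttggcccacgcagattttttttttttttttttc
Ccl8 (chr11:82114935-82115184, plus strand): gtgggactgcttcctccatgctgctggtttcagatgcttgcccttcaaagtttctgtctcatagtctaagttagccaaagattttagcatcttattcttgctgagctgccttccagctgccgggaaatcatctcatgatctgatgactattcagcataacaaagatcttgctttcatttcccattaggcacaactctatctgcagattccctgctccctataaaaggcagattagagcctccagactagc
Stat2 (chr10:128270248-128270497, plus strand): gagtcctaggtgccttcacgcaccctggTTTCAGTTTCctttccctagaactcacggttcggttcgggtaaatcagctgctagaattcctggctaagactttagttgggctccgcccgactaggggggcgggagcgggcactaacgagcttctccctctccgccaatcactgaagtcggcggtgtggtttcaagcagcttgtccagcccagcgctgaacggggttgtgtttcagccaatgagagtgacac
Ifi203 (chr1:173942493-173942742, minus strand): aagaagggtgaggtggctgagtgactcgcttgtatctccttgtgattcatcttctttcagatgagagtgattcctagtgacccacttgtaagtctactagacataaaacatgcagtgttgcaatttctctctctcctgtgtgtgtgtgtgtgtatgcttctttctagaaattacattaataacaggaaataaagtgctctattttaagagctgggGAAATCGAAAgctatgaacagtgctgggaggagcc
Ifitm2 (chr7:140955962-140956211, minus strand): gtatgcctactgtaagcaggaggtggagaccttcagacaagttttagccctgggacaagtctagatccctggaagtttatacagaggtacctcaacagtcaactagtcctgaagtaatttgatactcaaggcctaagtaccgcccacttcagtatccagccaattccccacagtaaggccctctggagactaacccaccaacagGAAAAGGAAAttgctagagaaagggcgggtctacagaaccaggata
Of the 87 genes, 66 had such a window, 79 windows in all. The ISRE core was found in 3 of 12 windows of interferon-stimulated genes (Ifi203, Ifi214 and Ifitm2), in 1 of 13 windows of genes with a called element (Stat2), and in 2.98% of 32851 windows of all genes. A GAS match was found in 1 of those 13 windows (Il1r2), beside 7.02% of all windows, and a kappaB match in 0 of the 13, beside 1.21%. A match is a description of the letters in this window and says nothing of binding.

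Il18, an interleukin-1 family cytokine that caspase-1 cuts into its active form and that makes T and NK cells release interferon-gamma, had the widest gap of the 152 elements. Its log2 ratios were 0.68, 0.98, 0.63 and 1.47 in 129X1/SvJ pools 1 to 4 and 0.44, 1.28, 0.33 and 0.72 in FVB/NJ pools (element 5571). They were -0.41, -0.66, -0.47 and -0.34 in DBA/2 pools, -1.0, -0.78, -1.03 and -0.84 in BALB/c pools, and -1.06, -0.95, -1.40 and -0.94 in C57BL/6J pools. Every pool of 129X1/SvJ and FVB/NJ was thus above the reference, every other pool was below it, and no pool lay between 0.33 and -0.34. In the order of the means, 129X1/SvJ (0.94 ± 0.38, SD, n = 4) and FVB/NJ (0.69 ± 0.43) overlapped, and so did BALB/c (-0.91 ± 0.12) and C57BL/6J (-1.09 ± 0.21). DBA/2 (-0.47 ± 0.14) lay between these pairs without overlap on this spot. The gap from 129X1/SvJ to C57BL/6J was 2.03 on the log2 scale, a 4.08-fold difference (limma F test, adjusted p = 2.57e-07).

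The repeated spot of Il18 (element 5763), 192 element numbers further on, followed the first at r = 0.967 over the 20 arrays and gave a 3.90-fold gap (limma F test, adjusted p = 1.06e-06). Repeated spots share pool, array and sequence, and are no independent replicates. The strain differences themselves also add to this r. On this spot DBA/2, with pools at -0.81 to -0.31, overlapped BALB/c, with pools at -1.24 to -0.52. Set against the mean of the other 4 strains, Il18 was higher in 129X1/SvJ (difference 1.39 ± 0.15, SE, limma adjusted p = 6.4e-06) and in FVB/NJ (1.07 ± 0.15, adjusted p = 0.00020). It was lower in C57BL/6J (-1.15 ± 0.15, adjusted p = 7.3e-05) and in BALB/c (-0.93 ± 0.15, adjusted p = 0.0011), and in DBA/2 the difference of -0.38 ± 0.15 did not pass (adjusted p = 0.33). These 4 calls held on both spots and with each pool left out in turn. Within the arrays of 1 dye, 129X1/SvJ stayed the highest strain and C57BL/6J the lowest, with means of 0.81 and -1.0 in Cy3 and of 1.07 and -1.17 in Cy5. Beside this result, the mean of 6 measured luminal epithelium markers ranged from -0.23 to 0.22 in 129X1/SvJ pools, -0.20 to 0.15 in FVB/NJ, -0.28 to 0.08 in BALB/c, -0.32 to 0.03 in DBA/2 and -0.11 to 0.09 in C57BL/6J. The 2 of these markers that passed the F test went opposite ways. Epcam had its highest mean in 129X1/SvJ (0.41) and its lowest in C57BL/6J (-0.46). Sbp was at -0.94 in 129X1/SvJ and 0.77 in C57BL/6J. For Sbp, the paper reports a difference in the same direction between these strains in microdissected epithelium. The level of Sbp therefore need not follow the amount of epithelium in a pool. The part of the epithelium in the Il18 result was not tested.

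**Figure D2:**
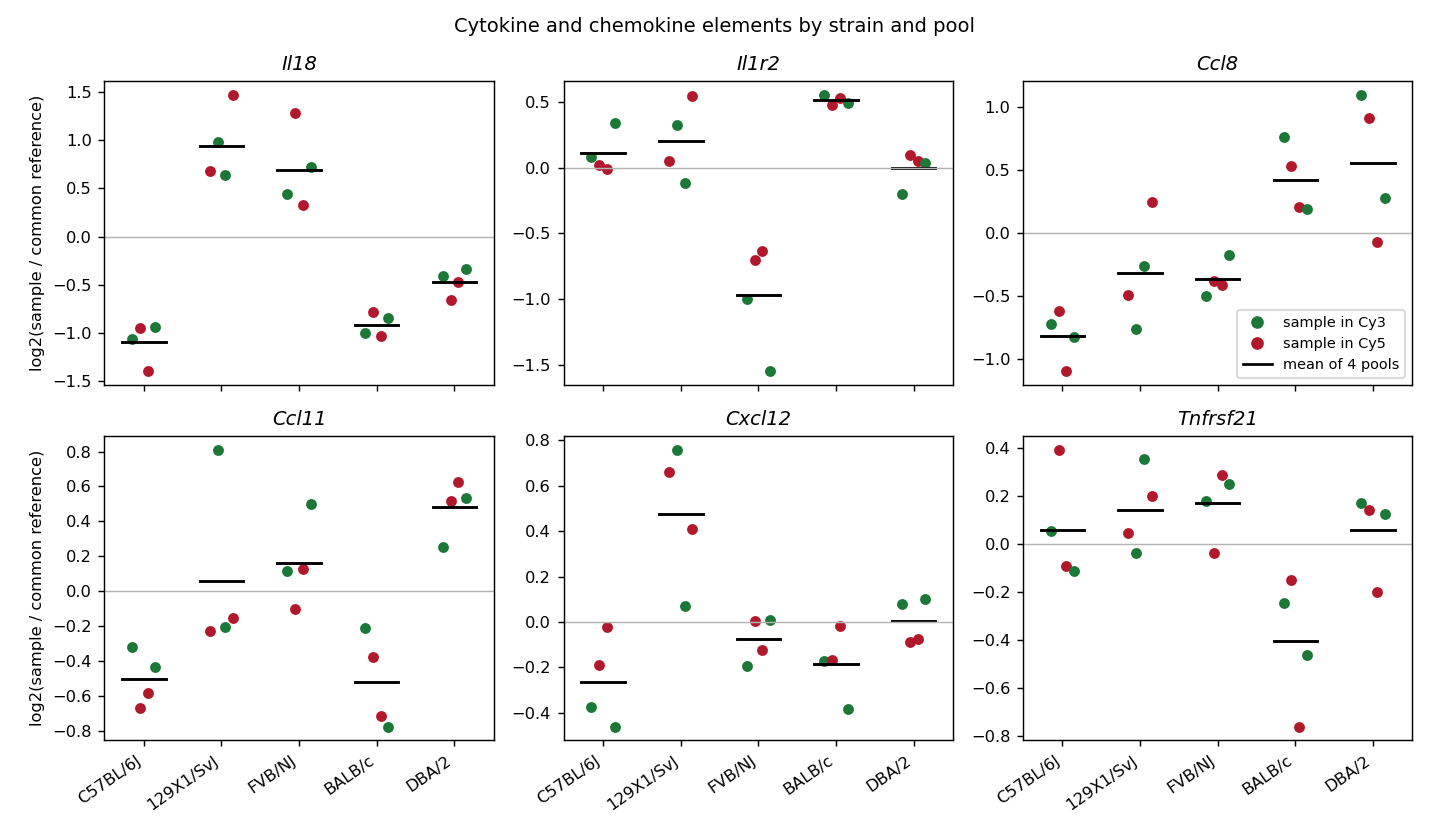
Log2 ratio of sample over common reference (vertical axis) of 6 genes in the 4 pools of each strain (horizontal axis), coloured by the dye of the sample, with the strain mean as a bar. Il18 parts into 2 strains above 0 and 3 below it, Il1r2 is lowest in the 4 FVB/NJ pools, Ccl8 lowest in C57BL/6J, Ccl11 highest in DBA/2 on average, Cxcl12 highest on average in 129X1/SvJ and Tnfrsf21 lowest on average in BALB/c.

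The enzymes and adaptors that process Il18 and Il1b, each read on 1 element, did not pass the F test. This held for the 5 genes measured of 8 listed (Casp1, Pycard, Casp4, Casp8 and Gsdmd). Of all named genes 12.4% passed. Casp1, the protease that cuts both cytokines, had strain means of 0.13 in 129X1/SvJ and -0.35 in FVB/NJ, the strains highest for Il18 (limma F test, adjusted p = 0.290). Il18rap, a subunit of the Il18 receptor, had a gap of 0.67 with a spread within strains of 0.52 (adjusted p = 0.736). Il33, another member of the family, had a gap of 0.18 (adjusted p = 0.856).

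Il1r2, a decoy receptor that binds interleukin-1 without signalling, was lowest in FVB/NJ. The FVB/NJ pools were at -1.0, -0.70, -0.63 and -1.55, whereas the 16 pools of the other strains lay between -0.20 and 0.56 (element 4832). BALB/c pools were the highest on average and the most alike, at 0.56, 0.48, 0.53 and 0.50. FVB/NJ pools lay below every other pool on both spots, which 0.699% of all elements showed for FVB/NJ in either direction. Of the 152 elements, 5 had the pools of a strain apart in this way: both spots of Il1r2 and elements of Il1r1, Cxcl12 and Tnfrsf21. For each strain taken singly, 0.565% to 1.18% of all elements did. These elements are named because they were apart, and whether the set showed this more often than the array was not tested. The difference from the mean of the others was -1.18 ± 0.13 in FVB/NJ (limma adjusted p = 1.4e-05) and 0.68 ± 0.13 in BALB/c (adjusted p = 0.0063), and the gap between BALB/c and FVB/NJ was 2.81-fold (F test, adjusted p = 4.84e-05). On the repeated spot the FVB/NJ difference was again -1.18 ± 0.17 (adjusted p = 0.00025), while the BALB/c difference of 0.51 ± 0.17 did not pass (adjusted p = 0.19).

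Il1r1, the receptor that signals for interleukin-1 and the next gene after Il1r2 in the RefSeq annotation of GRCm38.p6, had another order of strains. Its log2 ratios were 0.48, 0.25, 0.20 and 0.53 in C57BL/6J pools, -0.15, -0.19, 0.13 and -0.48 in 129X1/SvJ pools and -0.13, -0.18, -0.31 and -0.08 in FVB/NJ pools (element 873). C57BL/6J and FVB/NJ pools did not overlap, and DBA/2 (mean 0.27) overlapped C57BL/6J. The F test passed on both spots (adjusted p = 0.0172 and 0.0546). C57BL/6J was higher than the mean of the others by 0.40 ± 0.10 on the first spot (adjusted p = 0.040), a call that ended when any of 10 single pools was left out (adjusted p of up to 0.18, without C57BL/6J pool 1), and this spot also differed between dyes (adjusted p = 0.0163). On the repeated spot 129X1/SvJ was lower by 0.81 ± 0.21 (adjusted p = 0.024). 129X1/SvJ pool 2 was at -1.87 there, and without it the adjusted p was 0.0503. C57BL/6J pools lay above every other pool on the repeated spot, which 0.86% of all elements showed for C57BL/6J in either direction, but the difference of 0.58 ± 0.21 did not pass (adjusted p = 0.17).

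Il1rap, the accessory protein that both interleukin-1 and Il33 receptors need, was lower in 129X1/SvJ, with pools at -0.55, 0.01, -0.33 and -1.06 (difference -0.52 ± 0.14, adjusted p = 0.028, and F test adjusted p = 0.0556). Its call in 129X1/SvJ ended without pool 1 (adjusted p = 0.0568) or pool 4 (adjusted p = 0.109), and its F test did not pass without 129X1/SvJ pool 1, DBA/2 pool 2 or FVB/NJ pool 2 or 4 (adjusted p of up to 0.109). Il1b, the main secreted ligand of Il1r1, was lowest in DBA/2, with pools at -0.46, -0.37, -0.42 and -0.14, against 0.21, 0.24, 0.19 and 0.11 in 129X1/SvJ pools (element 8637). The difference of DBA/2 from the mean of the others was -0.42 ± 0.08 on that spot (adjusted p = 0.0045) and -0.24 ± 0.08 on the repeated spot, where it did not pass (adjusted p = 0.18). The F test passed on both spots of Il1b (adjusted p = 0.00515 and 0.0200). The genes of the interleukin-1 system thus had their lowest means in different strains: Il1b in DBA/2 or C57BL/6J by spot, Il1r2 in FVB/NJ, and Il1r1 and Il1rap in 129X1/SvJ. On element 873 of Il1r1, though, 129X1/SvJ and FVB/NJ were level, both with a mean of -0.17.

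Ccl8, a CC chemokine that attracts monocytes, was lowest in C57BL/6J and highest in DBA/2 and BALB/c. Its log2 ratios were -0.72, -0.62, -1.10 and -0.82 in C57BL/6J pools, 1.10, 0.91, -0.07 and 0.28 in DBA/2 pools and 0.77, 0.54, 0.21 and 0.19 in BALB/c pools (element 3764). DBA/2 and BALB/c overlapped each other and did not overlap C57BL/6J. 129X1/SvJ (mean -0.31) and FVB/NJ (mean -0.36) lay between them. DBA/2 and BALB/c were the strains from Charles River, so supplier and strain cannot be told apart in their higher means. The gap from DBA/2 to C57BL/6J was 2.58-fold (limma F test, adjusted p = 0.00139) and 2.53-fold on the repeated spot (adjusted p = 0.00303). C57BL/6J was lower than the mean of the others on both spots (-0.89 ± 0.18, adjusted p = 0.0068, and -1.06 ± 0.19, adjusted p = 0.0017). DBA/2 was higher on the first spot alone (0.82 ± 0.18, adjusted p = 0.018), and not without its pool 1 (adjusted p = 0.158) or pool 2 (adjusted p = 0.143).

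Beside Ccl8, the mean of 10 leukocyte markers ranged from -0.13 to -0.05 in C57BL/6J pools, 0.05 to 0.13 in BALB/c, -0.11 to 0.10 in DBA/2, -0.12 to 0.05 in FVB/NJ and -0.15 to 0.22 in 129X1/SvJ. Of those markers 1, the macrophage lysozyme Lyz2, passed the F test, highest in BALB/c (0.59). Fcer1g, Itgam and Adgre1 had their highest means in C57BL/6J, and Aif1, Cd79b, Ms4a1 and Cd4 had their lowest means there. None of these passed, and among them Aif1 had the smallest adjusted p (0.217), with means of -0.32 in C57BL/6J, 0.29 in BALB/c and 0.21 in DBA/2. The mean of 3 adipose tissue markers was lowest in C57BL/6J, at -0.39 to -0.23 in its pools, against -0.14 to 0.32 in the other 16 pools, and Fabp4 and Lpl passed the F test with their lowest means in C57BL/6J. The part of leukocytes or of adipose tissue in the Ccl8 result, and in the other genes low in C57BL/6J, was not tested.

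Ccl11 (eotaxin), which attracts eosinophils, shares the chemokine cluster with Ccl8: the RefSeq order is Ccl2, Ccl7, Ccl11, Ccl12, Ccl8. Its log2 ratios were 0.25, 0.52, 0.62 and 0.54 in DBA/2 pools, against -0.32, -0.67, -0.58 and -0.44 in C57BL/6J pools and -0.21, -0.38, -0.72 and -0.78 in BALB/c pools (element 149). DBA/2 was thus apart from both. Ccl8 was also high in DBA/2 and low in C57BL/6J, whereas in BALB/c the means of Ccl8 and Ccl11 had opposite signs. DBA/2 was higher than the mean of the others on the first spot alone, by 0.69 ± 0.16 (adjusted p = 0.022). This did not pass without DBA/2 pool 2, 3 or 4 (adjusted p of 0.102, 0.119 and 0.088). On the repeated spot (element 341) BALB/c pools ran from -0.82 to 0.47 and DBA/2 pools from 0.48 to 0.61, and the lowest mean was in C57BL/6J (-0.50). The F test passed on both spots (adjusted p = 0.00486 and 0.0687), and the call on the repeated spot ended in 8 of the 20 fits with a pool left out (adjusted p of up to 0.153). The other 3 genes of the cluster did not pass: the gaps of Ccl2 were 0.24 and 0.39, both of those of Ccl7 0.32, and those of Ccl12 0.27 and 1.09, the last with a spread within strains of 0.75.

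Cxcl12, the ligand of Cxcr4, made largely by stromal cells, was higher in 129X1/SvJ. It was on the array as 2 elements that match different sequences. On the first (element 130) the 129X1/SvJ pools were at 0.66, 0.76, 0.07 and 0.41, and only pool 3 did not exceed the highest of the 16 other pools, at 0.10. On the second (element 4493) they were at 0.63, 0.63, 0.41 and 0.23, all above the highest other pool at 0.13, which 1.18% of all elements showed for 129X1/SvJ in either direction. The differences from the mean of the others were 0.60 ± 0.11 (adjusted p = 0.0016) and 0.66 ± 0.12 (adjusted p = 0.0019). The F test gave adjusted p = 0.00737 and 0.00458, with gaps of 1.67-fold and 1.82-fold, and with each pool left out in turn both elements still passed. Beside this, 9 fibroblast markers had a mean of -0.58 to 0.28 in 129X1/SvJ pools and of -0.12 to 0.13 in the pools of the other strains, with Col1a1 the 1 marker that passed, lowest in 129X1/SvJ (-0.27). In the other 4 strains Cxcl12 did not pass on either element.

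Ccl9, a CC chemokine of myeloid cells, passed the F test on its 1 element with a gap of 0.48 from BALB/c to DBA/2 (adjusted p = 0.0787), and in no single strain. Its call ended in 9 of the 20 fits with a pool left out (adjusted p of up to 0.178, without BALB/c pool 2). Among the chemokines that did not pass, the narrowest gap was 0.18 (Ccl3). The chemokine receptors ran from 0.15 (Ccr9) to 0.65 (Cxcr5).

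Tnfrsf21, the death receptor 6, was lower in BALB/c on all 3 of its elements. On element 3235 the BALB/c pools were at -0.45, -0.53, -0.74 and -0.36, below the lowest of the 16 other pools at -0.23, which 0.565% of all elements showed for BALB/c in either direction. On element 2567 they were at -0.25, -0.15, -0.76 and -0.46 and overlapped the DBA/2 pools, whose lowest was at -0.20. The differences from the mean of the others were -0.51 ± 0.12, -0.63 ± 0.15 and -0.63 ± 0.11 (elements 2567, 3043 and 3235, adjusted p = 0.019, 0.024 and 0.0021). On elements 2567 and 3043 the call did not pass without BALB/c pool 3 (adjusted p = 0.147 and 0.156), nor without pool 4 (adjusted p = 0.0941 and 0.0587), and on 3043 nor without pool 2 (adjusted p = 0.110). The F test on these elements, at an adjusted p of 0.0613 and 0.0593, did not pass in 3 and 5 of the 20 fits with a pool left out (adjusted p of up to 0.242 and 0.202), and on 3235 (0.00508) it passed in all. The other TNF receptors did not pass, down to a gap of 0.09 for Tnfrsf1b, and neither did the ligands Tnf (gap 0.25), Tnfsf10 (0.28) and Tnfsf11 (0.80 and 0.64, with a spread within strains of 0.89 and 0.85). Of the TNF-induced proteins, Tnfaip3, a brake on NF-kappaB, had gaps of 0.29 and 0.39.

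The mean of 6 measured seminal vesicle genes was between 0.57 and 1.42 in BALB/c pools, against -3.56 to -0.04 in the other 16 pools, and 3 of the 6 passed the F test, highest in BALB/c (Svs2, Svs5 and Pate4). Svs4 had its highest mean in BALB/c without passing, and Svs1 and Svs6, which did not pass, had theirs in C57BL/6J (0.39) and 129X1/SvJ (-0.01). The part of that tissue in the BALB/c values of Tnfrsf21, Il18 and Il1r2 was not tested.

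Il3ra, the binding chain of the Il3 receptor, was at 0.53, 0.26, 0.14 and 0.37 in DBA/2 pools, against -0.57, -0.40, -0.34 and -0.26 in C57BL/6J pools (element 4479). The FVB/NJ mean of -0.41 was the lowest, beside -0.39 in C57BL/6J, and 129X1/SvJ (mean 0.16) overlapped DBA/2. DBA/2 was higher than the mean of the others on this spot alone, by 0.55 ± 0.13 (adjusted p = 0.029). This did not pass without its pool 1, 2 or 4 (adjusted p of 0.176, 0.0923 and 0.109). The F test passed on both spots (adjusted p = 0.00992 and 0.0331). Il17b, a cytokine of the interleukin-17 family, was higher in FVB/NJ, with pools at 0.64, 0.40, 0.09 and 0.84 (difference 0.58 ± 0.13, adjusted p = 0.015), but not without FVB/NJ pool 1 (adjusted p = 0.0834) or pool 4 (adjusted p = 0.117), which also ended its F test call (adjusted p = 0.101 and 0.114). Its repeated spot did not pass the F test (adjusted p = 0.188). Il7, which keeps lymphocytes alive, was lower in 129X1/SvJ on 1 spot (-0.32 ± 0.09, adjusted p = 0.037), a call that ended in 7 of the 20 fits with a pool left out (adjusted p of up to 0.116), and its repeated spot had an F test adjusted p of 0.622. Il4ra, a chain of the receptors for Il4 and Il13, was higher in 129X1/SvJ on 1 spot (0.66 ± 0.17, adjusted p = 0.025), not without pool 1 (adjusted p = 0.0885) or pool 3 (adjusted p = 0.0539), and its F test (adjusted p = 0.0430) did not pass without FVB/NJ pool 2 (adjusted p = 0.110). Its repeated spot followed it at r = 0.104 only and did not pass (F test adjusted p = 0.764). The remaining interleukins and receptors did not pass, from Il6ra (gap 0.10) and Il5 (0.14) to Il12rb1 (0.92, with a spread within strains of 0.55).

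Socs2, which restrains growth hormone signalling, was the 1 Socs gene to pass. On element 278 the C57BL/6J pools were at -0.56, -0.23, -0.45 and -0.27, against 0.08, 0.14, 0.30 and 0.42 in BALB/c pools, without overlap. C57BL/6J was lower than the mean of the others by 0.43 ± 0.10 (adjusted p = 0.014), and not without its pool 1 (adjusted p = 0.0961) or pool 3 (adjusted p = 0.0625). A second element that matches another sequence passed the F test at the margin (adjusted p = 0.0986), again lowest in C57BL/6J, and its call ended in 16 of the 20 fits with a pool left out. Socs1, an inhibitor of interferon signalling, had gaps of 0.07 and 0.41 and did not pass. Stat2, the interferon-specific Stat, passed on 1 of 2 spots (gap 0.51, highest in BALB/c and lowest in FVB/NJ, adjusted p = 0.0556), and not without BALB/c pool 4 or FVB/NJ pool 1 or 3 (adjusted p of 0.111, 0.133 and 0.132). Its other spot differed between dyes and did not pass the F test (adjusted p = 0.172). With a dye term in the fit that spot did pass, and so did the gene with its spots averaged. No element of Jak1 or Jak2 passed, and Irf2 had the narrowest gap of this group (0.09). Of the NF-kappaB factors and receptor adaptors, 1 of 23 measured of 36 listed passed, beside 12.4% of all named genes. It was Nfkb2, highest in 129X1/SvJ (0.31) and lowest in C57BL/6J (-0.24, adjusted p = 0.0322).

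The interferon-stimulated genes showed no call. The 16 elements of 14 genes had gaps between 0.13 (Ifi209) and 0.66 (Ifi214) with a median of 0.35, which is the median of the other 136 elements as well. Their set mean lay between -0.09 and 0.06 in every pool of every strain, from -0.06 on average in C57BL/6J to 0.02 in DBA/2. Such a mean evens out elements that go both ways. Element by element, the widest of these gaps (0.66) compares with 2.03 for Il18 and with 0.74 and 0.87 for Cxcl12. With 0 of 16 elements called beside 11.3% of all, whether this set was quieter than the array was not tested.

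Oas1b, an oligoadenylate synthetase family member tied to flavivirus resistance in mice, came closest, with an F test adjusted p of 0.107. Its log2 ratios were 0.20, -0.00, 0.23 and 0.66 in 129X1/SvJ pools and 0.42, 0.28, 0.09 and 0.16 in C57BL/6J pools, against -0.22, -0.00, -0.16 and -0.16 in DBA/2 pools. C57BL/6J pools lay above all DBA/2 pools, and the lowest 129X1/SvJ pool and the highest DBA/2 pool were both within rounding of 0. Usp18, which shuts off signalling at the type I interferon receptor, was at 0.02, 0.35, -0.02 and 0.24 in C57BL/6J pools, against -0.38, -0.05, -0.42 and -0.17 in FVB/NJ pools (adjusted p = 0.140). Oas1b and Usp18 had opposite signs in 129X1/SvJ, with means of 0.27 and -0.23. Of the next in rank, Ifitm3 and Ifitm1, which keep viruses from entering cells, had gaps of 0.33 and 0.35 (adjusted p = 0.268 and 0.317, and 0.247 on the second element of Ifitm1), and Ifi214, of the Ifi200 family of DNA sensors, had adjusted p = 0.320 with 129X1/SvJ pools from -1.41 to 0.28. The Ifitm, Oas and Ifi200 genes are families of close relatives, and how far a spotted cDNA bound transcripts of its relatives was not tested. Both elements of Ifitm2, which match 1 sequence, correlated at -0.00 over the 20 arrays.

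**Figure D3:**
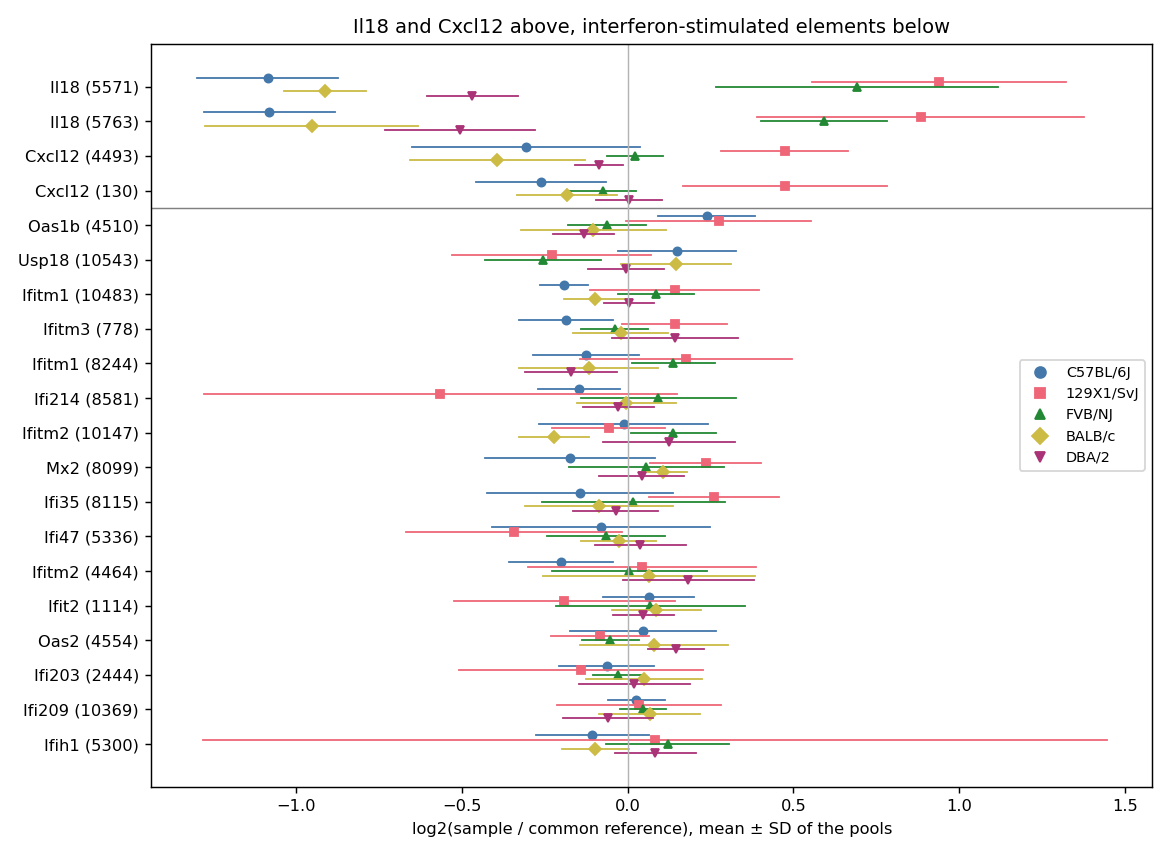
Strain means (symbols) and SD of the pools (lines) of the log2 ratio of sample over common reference (horizontal axis) for both elements of Il18 and of Cxcl12, above the line, and the 16 interferon-stimulated elements below it, in the order of their F test; array element numbers are in brackets. Il18 means run from -1.09 to 0.94 and those of the interferon-stimulated elements from -0.57 to 0.27.

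Of a list of interferon pathway genes and targets, which shares Ifih1 with the set, 2 of 16 measured of 53 listed passed, Parp12 and Pml. This is beside 12.4% of all named genes. Parp12, an interferon-induced mono-ADP-ribosyltransferase, had means of 0.16 in 129X1/SvJ and -0.37 in FVB/NJ (adjusted p = 0.0751), and Pml, which builds nuclear bodies, had 0.28 in 129X1/SvJ and -0.28 in FVB/NJ (adjusted p = 0.0956). Uba7 had the widest gap of these 16 genes, 1.85, from 0.83 in BALB/c to -1.02 in DBA/2, and did not pass (adjusted p = 0.140). The immunoproteasome genes Psmb8, Psmb9 and Psmb10 did not pass (adjusted p = 0.495, 0.680 and 0.501). Neither did B2m, the light chain of MHC class I (0.183), whose lowest mean was in C57BL/6J (-0.60).

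Strain by strain, the set gave 29 calls against the mean of the other 4 strains. In C57BL/6J 1 element was higher (0.658% of the 152, beside 1.77% of all elements) and 5 were lower (3.29%, beside 1.44%): Il1r1, and Il18, Ccl8 and Socs2. In 129X1/SvJ 5 were higher (3.29%, beside 2.96%), of Il18, Cxcl12 and Il4ra, and 3 lower (1.97%, beside 2.74%), of Il1r1, Il1rap and Il7. FVB/NJ had 3 higher (1.97%, beside 1.22%), of Il18 and Il17b, and 2 lower (1.32%, beside 1.34%), both of Il1r2. In BALB/c, 1 was higher (0.658%, beside 0.914%), of Il1r2, and 5 lower (3.29%, beside 1.12%), of Il18 and Tnfrsf21. DBA/2 had 3 higher (1.97%, beside 1.09%), of Ccl8, Ccl11 and Il3ra, and 1 lower (0.658%, beside 0.869%), of Il1b. Calls went both ways in each strain, and the same gene accounts for several calls where its elements repeat.

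**Figure D4:**
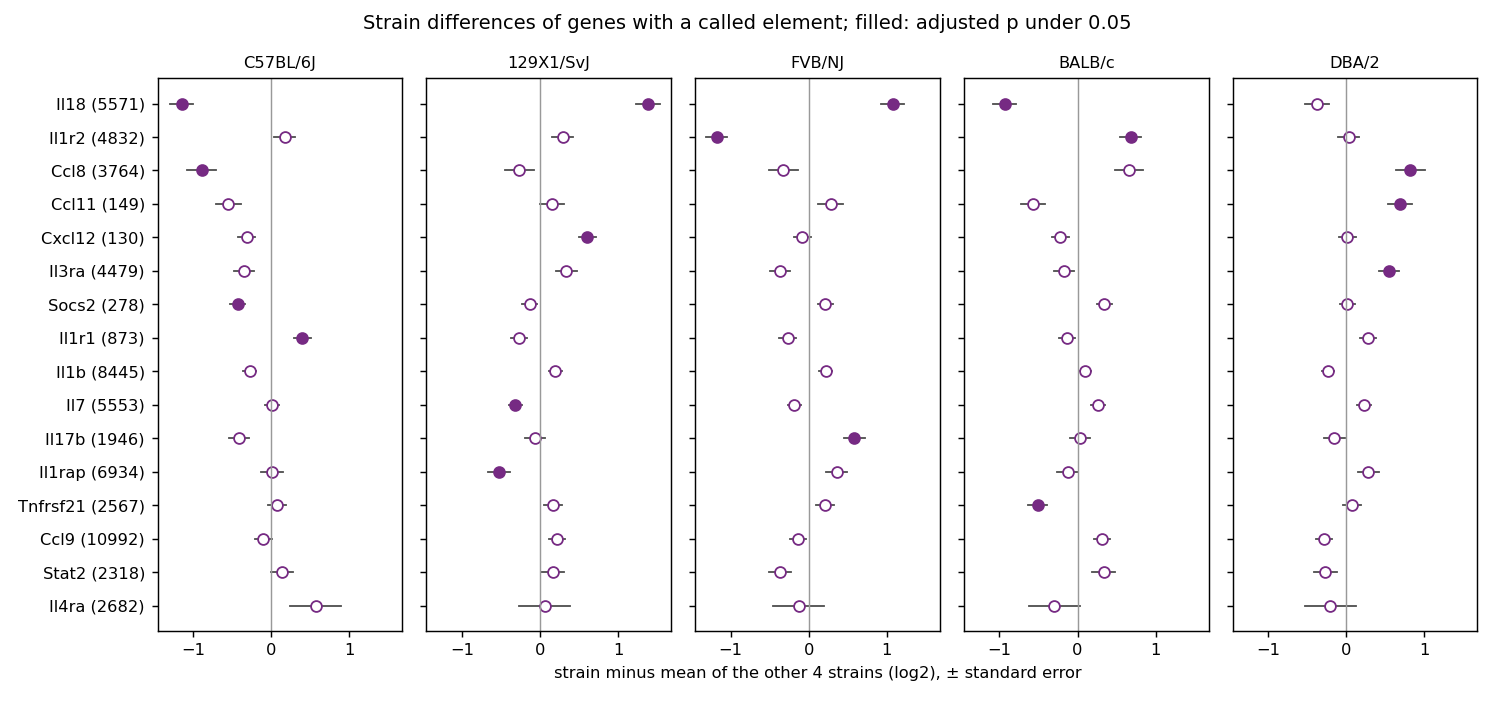
Difference of each strain from the mean of the other 4 (log2, horizontal axis, 1 panel a strain) with its standard error for the 16 genes with a called element, each by its representative element, whose number is in brackets; filled points have an adjusted p under 0.05. Il18 is filled in 4 of the 5 panels, and the representative elements of Stat2 and Il4ra, which did not pass the F test, are open in all 5.

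Repeated spots show in part how far single values can be read. Of the 87 genes, 54 had several elements, and 55 pairs of elements matched 1 sequence, 51 of them 192 element numbers apart. Their correlation over the 20 arrays had a median of 0.632 and ran from -0.436 (Il2) to 0.967 (Il18), with 34 of 55 pairs at 0.5 or above. Il13ra2 (-0.207), Ccl3 (-0.0800) and Il10rb (-0.0401) were below 0 too. Strain differences were left in these values, so a wide strain gap by itself raises r. The r of a called gene is therefore no measure of how well its spots agree within a strain. Among called genes r was 0.912 for Ccl11, 0.895 for Il3ra, 0.879 for Il1r2, 0.817 for Ccl8, 0.791 for Il1b and 0.651 for Il1r1. It was 0.795 for Il17b, 0.605 for Stat2, 0.307 for Il7 and 0.104 for Il4ra, which were called on 1 spot of 2. Of the 14 genes with several elements and a call, 10 were called on all of them.

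The dye of the sample moved 20 of the 152 elements (13.2%), beside 15.9% of all elements, and 1 of the 27 called elements (Il1r1). In the 27 called elements the strain that was highest overall lay above the strain that was lowest overall within the Cy3 arrays and within the Cy5 arrays alike. These elements and strains were picked on the same arrays, so this is no separate support for the calls. The same strain was highest under both dyes in 16 of the 27, and the same strain was lowest in 22. The 129X1/SvJ arrays had the widest spread of values and the lowest estimated precision, with array weights of 0.161 to 0.569 against 0.622 to 2.77 in the other strains. Arrays of 1 strain and 1 dye correlated at a median of 0.461, and arrays of different strains and dyes at -0.165.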

How the data were processed

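Prostate RNA of 5 strains was measured on 20 arrays, 4 pools a strain, each mapped from its label. The authors scanned the arrays with GenePix software, subtracted median background, left out spots not above it and applied print-tip loess within arrays. Their deposited values are log2 ratios, each sample over the common reference. Of all deposited values 2.89% are missing, and whether the filter on background was applied to them is unknown. Intensities were not used here, so signal over background, and thus depth, is unknown, and precision rests on how many arrays there are. Pools are separate mice. Gene symbols came from the platform annotation, and elements with several symbols (13 would match) were left out; all 87 gene identifiers were found in RefSeq, with 0 changed symbols.

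Elements lacking no more than 3 of 20 values, with 2 or more values for every strain, were fitted with limma 3.58.1 in R 4.3.3, with 1 mean for each strain and no covariate. Tests were a moderated F test over the strains (adjusted p at most 0.1) and each strain against the mean of the other 4 (adjusted p under 0.05), with Benjamini-Hochberg adjustment over all 11159 elements, and a dye term (adjusted p under 0.05). The moderated F test stands in for the multiclass permutation test of the methods, which was not run, and their filter on low abundance was not applied. The code was tested on simulated data. Named were the genes with a called element, Il18, Cxcl12, the 5 interferon-stimulated genes of smallest p and the widest and narrowest element of each role; a gene's representative element has the fewest missing values, then the lowest number. Genes of the lists and cell type markers were each read on their representative element alone, and their other elements were not counted. The members and lists were chosen with earlier results of these data known. Alternatives changed missing values, centring, scaling, quantile normalization, dye, pool block, averaging by gene, moderation, array weights and the arrays used.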

Additional observations from a re-analysis of the deposited data

Results flagged for a closer look

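A pool far from the other 3 of its strain was found in 5 of 105 strain groups of the 21 named elements looked at, and chance gives about 1 in 20 groups. Ccl11 was at 0.81 in 129X1/SvJ pool 2, with the other pools at -0.23 to -0.15. Il17b was at -0.78 in C57BL/6J pool 2, with the others at -0.18 to -0.07. Tnfrsf21 was at -0.20 in DBA/2 pool 3, with the others at 0.13 to 0.17. Ifitm3 was at 0.19 in BALB/c pool 2, with the others at -0.11 to -0.07. Ifitm1 was at -0.43 in BALB/c pool 1, with the others at -0.03 to 0.01.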

How the results depend on the processing

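No alternative turned the direction of a named difference. The count of 27 elements past the F test was 8 with the Cy3 arrays only, 4 with the Cy5 arrays only, which have 2 pools a strain, and 15 genes when elements were averaged by gene, and it lay between 25 and 34 in the other alternatives. The count of 29 calls of a strain against the others was 13 with the Cy3 arrays only, 5 with the Cy5 arrays only, 17 with elements averaged by gene and 44 with array weights, and lay between 29 and 41 otherwise. Leaving out each pool in turn gave 22 to 30 elements in the F test and 24 to 38 strain calls. Il18 and Il1r2 passed the F test in every alternative on their representative elements (adjusted p of at most 0.0250 and 0.0586). Oas1b passed with arrays centred, scaled or quantile normalized, with a dye term or by gene (adjusted p of 0.0655 to 0.0991), and without 129X1/SvJ pool 2 or BALB/c pool 3 (0.0480 and 0.0515). Usp18 passed with arrays scaled or quantile normalized, with a dye term, with array weights or without the 129X1/SvJ arrays (0.0275 to 0.0911), and without 129X1/SvJ pool 4 (0.0125). Ifi214 passed without 129X1/SvJ pool 2 (0.0147) and both elements of Ifitm1 without pool 1 (0.0638 and 0.0882). The representative element of Stat2 passed with a dye term, and Stat2 passed by gene (smallest F test adjusted p of the alternatives 0.00475). With a pool left out, the smallest adjusted p of that element was 0.0998. Whether signal over background limits these values is unknown.

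With the pool number as a replicate block, 28 elements passed the F test and there were 31 strain calls. The numbers do not pair the pools by any label: same-numbered pools of different strains with the same dye deviated together at a median r of 0.266, against 0.181 for other numbers, and 10 of 20 arrays correlated best with their own number.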
